A study of Mus musculus with 2 samples.

Results

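The 10 genes described here encode the lysosomal proteases cathepsins A, B, C, D, H, L, S and Z (*Ctsa*, *Ctsb*, *Ctsc*, *Ctsd*, *Ctsh*, *Ctsl*, *Ctss* and *Ctsz*), the protease legumain (*Lgmn*), and cystatin C (*Cst3*), the secreted inhibitor of many of them. They are 10 of the 50768 genes counted, and each has a row in both libraries. They were chosen by their symbols after their macrophage levels and the lower level of extracellular matrix (ECM) regulators as a group in NOD macrophages had been seen in these data. Strain ratios in macrophages are therefore given as a description, and nothing is supported with them.

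Cathepsins B, C, H, L, S and Z are cysteine proteases, cathepsin D is an aspartic protease, cathepsin A is a serine carboxypeptidase, and legumain cuts after asparagine. They are made as inactive precursors, reach the lysosome largely through mannose 6-phosphate receptors, and are matured there by one another. Macrophages also release some of them, and outside the cell they can cut collagen, elastin and other matrix proteins, which is why they and their inhibitor stand on lists of ECM regulators. Cystatin C binds the papain-like cathepsins in their active site and binds legumain at a separate site.

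Single-cell RNA sequencing (scRNAseq) was made of 1 library from NOD/ShiltJ mice and 1 from CD1 mice, both female, untreated and 20 weeks old. NOD/ShiltJ is an inbred strain that develops diabetes and a Sjögren-like infiltration of the salivary glands, and CD1 is an outbred stock. Strain, diabetes, Sjögren-like disease and library therefore cannot be told apart. Submandibular glands with the attached sublingual glands were pooled (4 mice per strain in the study's methods, 3 in the labels), and cells carrying EpCAM or Ter119 were depleted. With 1 library per strain there is no replicate, and no difference was tested. The intervals below cover counting error only.

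Kept were 6500.0 NOD barcodes (median 5719.5 unique molecular identifiers, UMIs) and 7014 CD1 barcodes (median 6495), 18 of which carried the same barcode in both libraries. Barcodes were placed by marker UMIs, none of them from the 10 genes. This gave 326 NOD and 1865 CD1 macrophage-like barcodes, 935 and 2776 endothelial-like, 1650 and 92 T-like, and 271 and 248 NK-like. Although the libraries are labelled as enriched for stroma, 55 NOD and 16 CD1 barcodes met the fibroblast list. Levels are UMIs per 1000000 UMIs of the class (CPM). Each UMI stands for 1 captured RNA molecule, so levels of different genes were compared without a length correction.

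The macrophage-like class carried 3589 CPM (NOD) and 3370 CPM (CD1) of its 9 markers, with *Cd163* at 0 in both. The 7 check genes that had not been used for placing barcodes summed to 13677 and 14026 CPM. Its median depth was 8326.5 and 8398 UMIs and its median mitochondrial share 4.94% and 5.11%, but depth was spread differently: the shallowest of 5 bins set on NOD held 65 NOD and 210 CD1 barcodes, and the middle bin 65 and 566. Traces of other lineages were unequal. Plasma cell markers summed to 95.6 CPM in NOD, where *Derl3* and *Tnfrsf17* were at 0, and 28.5 CPM in CD1. Dendritic markers summed to 95.6 and 28.9 CPM, of which *Clec9a* made up 90.2 and 23.2 CPM, so this difference lay in 1 gene. Of the 8 dendritic markers, *Flt3*, *Cd209a*, *Ccr7* and *Snx22* were at 0 in NOD, and *Cd209a* and *Ccr7* in CD1. The part of these traces in the ratios below was not tested.

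Upstream windows of 4 genes are shown because they hold the letters of elements that other work has tied to lysosomal, interferon-driven or constitutive expression. They come from RefSeq on GRCm38.p6, the C57BL/6J reference, and are thus neither the NOD nor the CD1 sequence. The submitters' processing notes name GRCm39 for the counts, so these positions belong to the reference and not to the deposited files. Each line gives the 250 bases before the annotated start in 5′ to 3′ direction on the gene's strand. The capitals mark GGGCGG (the GC box) in *Cst3* (chr2:148875513-148875762, minus strand), a pair of GAAA words 2 bases apart (the core of interferon-stimulated elements) in *Ctss* (chr3:95526536-95526785, plus strand), and TCACGTGA in *Ctsd* (chr7:142387828-142388077, minus strand) and in the downstream of the windows of *Ctsa* (chr2:164833523-164833772, plus strand). TCACGTGA contains the E-box CACGTG, which MiT family factors such as TFEB recognise in lysosomal genes.
Cst3: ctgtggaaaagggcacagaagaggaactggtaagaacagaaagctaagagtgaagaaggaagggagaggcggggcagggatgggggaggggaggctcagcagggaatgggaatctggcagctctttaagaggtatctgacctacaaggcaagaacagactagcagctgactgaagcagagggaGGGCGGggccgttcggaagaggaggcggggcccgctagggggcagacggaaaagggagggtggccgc
Ctss: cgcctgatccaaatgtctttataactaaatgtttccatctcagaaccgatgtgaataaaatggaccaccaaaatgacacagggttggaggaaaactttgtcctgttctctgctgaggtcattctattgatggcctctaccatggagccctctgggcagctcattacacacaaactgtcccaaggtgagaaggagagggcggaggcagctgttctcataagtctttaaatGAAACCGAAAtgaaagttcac
Ctsd: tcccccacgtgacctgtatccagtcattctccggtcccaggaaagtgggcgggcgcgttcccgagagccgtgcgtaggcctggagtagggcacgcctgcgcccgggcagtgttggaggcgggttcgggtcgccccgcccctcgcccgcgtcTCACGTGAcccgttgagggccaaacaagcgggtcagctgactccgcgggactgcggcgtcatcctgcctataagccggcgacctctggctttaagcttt
Ctsa: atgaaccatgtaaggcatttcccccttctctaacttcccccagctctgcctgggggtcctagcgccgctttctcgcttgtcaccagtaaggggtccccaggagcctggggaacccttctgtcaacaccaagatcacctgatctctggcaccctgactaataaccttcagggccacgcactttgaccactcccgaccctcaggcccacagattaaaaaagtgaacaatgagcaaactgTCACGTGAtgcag

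Both strands were searched in the 250 bases of 32851 windows of the same length. RefSeq windows were matched for 8 of the 10 genes, 10 windows in all, and none for *Ctsb* and *Ctsh*. TCACGTGA was found for *Ctsa* and *Ctsd* and in 0.785% of all windows. The shorter CACGTG, which lies within it, was found for *Ctsa*, *Ctsd*, *Ctsl* and *Lgmn*, and in 6.02% of all windows. The pair of GAAA words was found for *Ctss* and in 2.98% of all windows. GGGCGG was found for 6 of the genes (*Cst3*, *Ctsc*, *Ctsd*, *Ctss*, *Ctsz* and *Lgmn*) and in 32.7% of all windows. These are matches of letters, not sites of binding.

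In macrophage-like barcodes, *Cst3* was by far the most abundant of the 10 genes and was lower in NOD, whereas 7 of the 9 proteases lay within 0.32 log2 units of their CD1 level. *Cst3* was at 12522 CPM in NOD (95% Poisson interval 12387 to 12659, 32759 UMIs) and 17986 CPM in CD1 (17920 to 18053, 281048 UMIs). The NOD level was 69.6% of the CD1 level, a log2 ratio of -0.52 (-0.54 to -0.51). Among all genes of these barcodes *Cst3* ranked 5 in NOD and 2 in CD1 by level. Free RNA, estimated from endothelial genes found in these barcodes, would have given 48.4 CPM of it in NOD and 86.7 CPM in CD1. These levels rest on free RNA shares of 2.91% and 1.22%. The planned source, secretory genes, gave 148% and 21.2%, so both levels depend on the source.

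*Ctss*, the protease that trims the invariant chain in antigen-presenting cells, came next at 3069 CPM in NOD and 3540 CPM in CD1 (-0.21, -0.24 to -0.17). *Ctsc*, which activates the serine proteases of granules, was at 1602 and 1618 CPM (-0.01, -0.06 to 0.03). *Ctsz*, a carboxypeptidase, was at 1028 and 1006 CPM (0.03, -0.03 to 0.09). Of these 3, *Ctss* alone had an interval that left out 0. *Ctsh*, an aminopeptidase, was at 750 and 803 CPM (-0.10, -0.17 to -0.03). *Ctsl*, an endopeptidase, was the least abundant at 87.9 and 97.7 CPM (-0.15, -0.36 to 0.05). *Lgmn*, which also processes other cathepsins, was at 776 CPM in both strains. *Ctsa*, which besides cutting peptides protects lysosomal beta-galactosidase and neuraminidase, was at 281 and 278 CPM (0.01, -0.10 to 0.13).

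The exceptions in the other direction were *Ctsb* and *Ctsd*. *Ctsb*, an abundant cysteine protease of macrophages, was at 1068 CPM in NOD and 788 CPM in CD1 (0.44, 0.38 to 0.50). *Ctsd* was at 273 and 215 CPM (0.34, 0.22 to 0.46), but this direction turned with at most 10% mitochondrial UMIs (-0.073) and under the stricter class rule (-0.37), and 5% of the barcodes held 46.8% (NOD) and 50.6% (CD1) of its UMIs. With a log2 ratio of at least 0.32 in size taken as the limit, 1 of the 10 genes was lower (*Cst3*) and 2 were higher (*Ctsb* and *Ctsd*), beside 15.5% lower and 23.2% higher of all 10186 genes with at least 100 UMIs in the class. The limit takes no account of counting error, so genes with few UMIs can pass it by that alone. Since the genes were chosen with this contrast known, nothing is read from those counts. The median log2 ratio was -0.01 over the 10 genes and 0.06 over all genes tested.

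**Figure D1:**
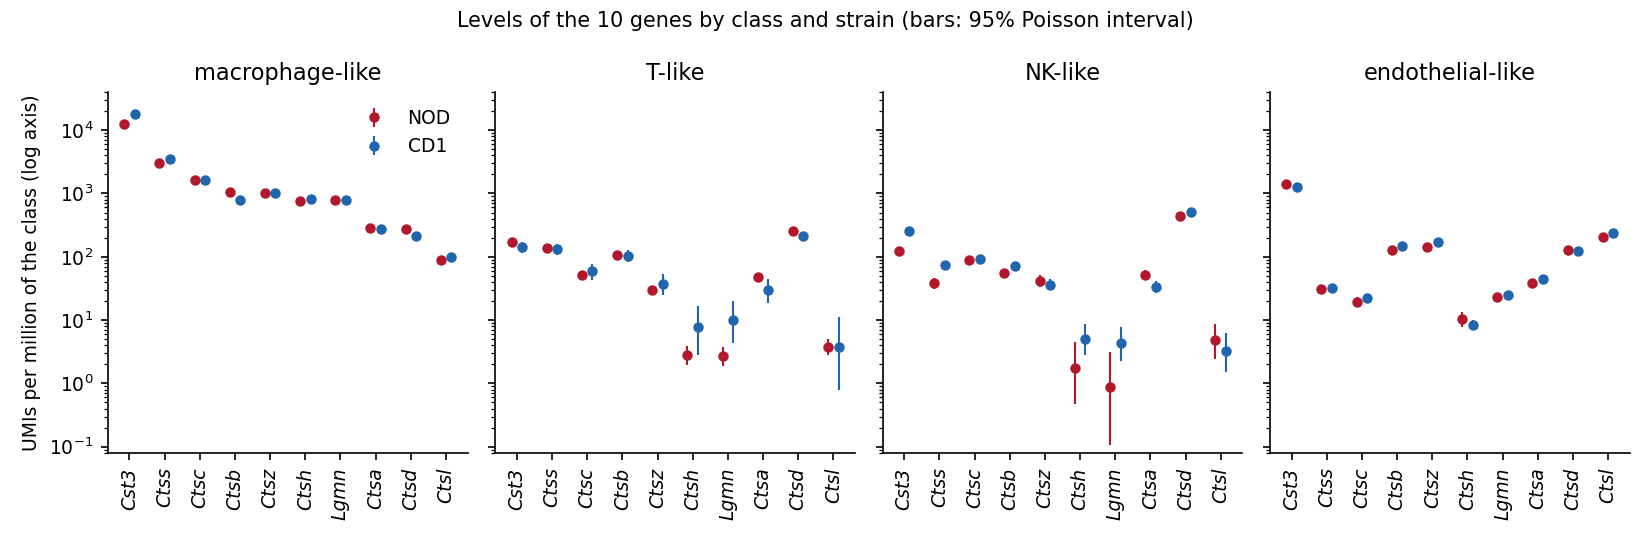
Level of each of the 10 genes in CPM of the class (log axis) in macrophage-like, T-like, NK-like and endothelial-like barcodes of the NOD (red) and CD1 (blue) library. Points are class sums and bars are 95% Poisson intervals, often smaller than the point. *Cst3* leads in macrophage-like (12522 and 17986 CPM) and endothelial-like barcodes (1429 and 1282 CPM), whereas *Ctsd* leads in T-like and NK-like barcodes.

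The difference in the regulator group was almost wholly that of *Cst3*. The list of 242 regulators, proteases and inhibitors found in the files summed to 23968 CPM in NOD and 29682 CPM in CD1 macrophage-like barcodes, a log2 ratio of -0.31 (-0.32 to -0.30) and a difference of -5714 CPM. The 10 genes made up 89.5% of that sum in NOD and 91.3% in CD1. *Cst3* accounted for -5464 CPM, or 95.6% of the difference, and *Ctss* for -471 CPM, or 8.25%. The 9 proteases together accounted for 3.30%, because the higher *Ctsb* and *Ctsd* offset most of *Ctss*. Summed, the 9 proteases stood at 8933 CPM in NOD and 9122 CPM in CD1 (-0.03, -0.05 to -0.01). Without *Cst3* the list had a ratio of -0.03 (-0.05 to -0.01), and without *Cst3* and *Ctss* 0.04 (0.02 to 0.06).

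The other 232 regulators summed to 2513 CPM in NOD and 2574 CPM in CD1 (-0.04, -0.07 to 0.00254), which is 1.08% of the difference. Of the 42 among them with at least 100 UMIs, 13 were lower and 17 higher past that limit, beside 15.5% and 23.2% of all tested genes. The 5 with the largest CPM differences moved both ways. The macrophage elastase *Mmp12* was at 73.4 CPM in NOD and 246 CPM in CD1 (-1.75). The sheddase *Adam10* was at 194 and 270 CPM (-0.48), *Adam22*, which has no protease activity, at 4.59 and 60.3 CPM (-3.72), and the plasminogen activator *Plau* at 101 and 149 CPM (-0.56). *Cstb*, the cytosolic cystatin B, was the one of the 5 that was higher in NOD, at 165 against 111 CPM (0.58).

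**Figure D2:**
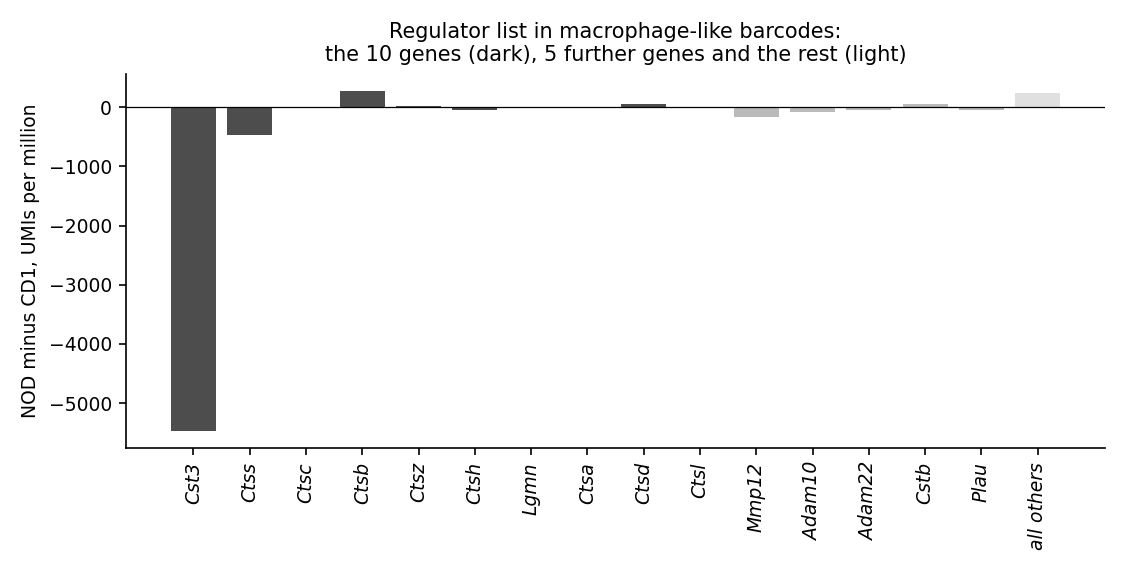
Difference between the strains (NOD minus CD1, in CPM of macrophage-like barcodes) of each of the 10 genes (dark bars), of the 5 other regulators with the largest differences (grey) and of all other regulators summed (light). The bar of *Cst3* reaches -5464 CPM, whereas *Ctss*, the next, reaches -471 CPM.

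Seen over all 10186 tested genes, *Cst3* had the fall of rank 3 in CPM, after *Apoe* (5035 against 11717 CPM) and *Cd74* (9558 against 15711 CPM), both of which were named after their values were seen. By log2 ratio, 8.14% of the tested genes lay lower than *Cst3*. *Ctss* had 22.6% of genes below it and *Ctsb* 84.8%.

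The lower *Cst3* also showed in the median and quartiles over macrophage-like barcodes, and few barcodes lacked it. Barcodes of a library are not replicates, and depth was not matched here. In NOD 324 of 326 barcodes held a *Cst3* UMI, and in CD1 1861 of 1865. The NOD median per barcode was 12972 CPM (quartiles 8210 and 19454) and the CD1 median 17958 CPM (12982 and 24292). Of the NOD barcodes, 234 (71.8%) lay below the CD1 median, 163 below the CD1 lower quartile, and 46 (14.1%) above the CD1 upper quartile. The distributions overlapped, and their 95th percentiles were close, at 36838 CPM in NOD and 38219 CPM in CD1. The highest barcode stood at 59835 CPM among 326 in NOD and 89105 CPM among 1865 in CD1. A highest value depends on the number of barcodes, so nothing is read from these.

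After each barcode was thinned to 500 UMIs, 93.6% of NOD (90.3 to 96.0, exact binomial) and 98.1% of CD1 barcodes (97.3 to 98.6) still held *Cst3*. For *Ctss* the shares were 79.4% (74.6 to 83.7) and 80.4% (78.6 to 82.2), and for *Ctsb* 39.0% (33.6 to 44.5) and 29.3% (27.2 to 31.4). Unthinned, *Ctsb* was found in 92.9% and 91.0%. In T-like barcodes (median 6691 and 8112.5 UMIs before thinning), 7.39% of NOD and 4.35% of CD1 barcodes held *Cst3* after thinning, and 4.06% and 8.70% held *Ctsb*, so both shares in macrophage-like barcodes lay far above those of a lymphocyte class.

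**Figure D3:**
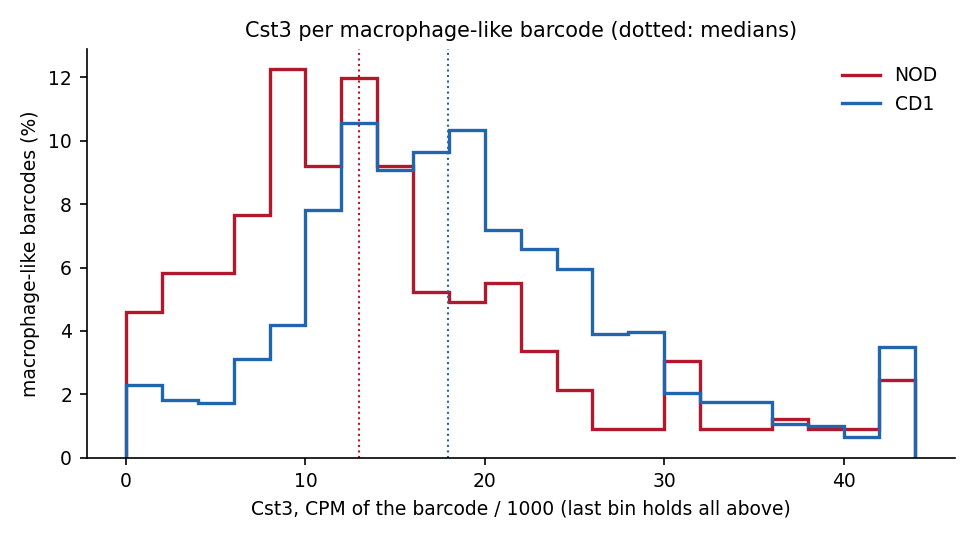
Share of macrophage-like barcodes (%) by *Cst3* level (CPM of the barcode divided by 1000, in bins of equal width, the last holding all higher values) in NOD (red, 326 barcodes) and CD1 (blue, 1865 barcodes). The dotted medians lie at 12972 and 17958 CPM, and the distributions overlap.

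*Ctsd* was spread otherwise. The 16 NOD barcodes highest in *Ctsd* (5% of the class) held 46.8% of its UMIs, and the 93 highest CD1 barcodes 50.6%. For *Cst3* these shares were 5.49% and 5.60%, and for *Ctsb* 13.9% and 20.4%. The NOD median of *Ctsd* was 66.9 CPM and its highest barcode stood at 13825 CPM, whereas the CD1 median was 0 and the highest barcode 7580 CPM. A small number of barcodes therefore set the summed level of *Ctsd* in both strains.

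Overlapping subsets of the same macrophage-like barcodes were compared next, so they are not separate observations. *Cst3* was lower in NOD in each of the 13 subsets drawn by cycling genes, interferon-response genes, C1q, mitochondrial share and depth. In the 16 NOD and 121 CD1 cycling barcodes it was at 7858 and 14584 CPM (-0.89, -0.96 to -0.82), and in the others at 12967 and 18377 CPM (-0.50, -0.52 to -0.49). Cycling barcodes held less *Cst3* in both strains. Where C1q genes were below the median of all macrophage-like barcodes, *Cst3* was at 8912 and 15533 CPM (-0.80), and above it at 16338 and 20763 CPM (-0.35). *Cst3* thus went with C1q in both strains, while summed C1q itself was at 10601 and 10655 CPM. The cycling and C1q subsets were not matched for depth, and the part of depth in these differences was not tested.

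The interferon-response list was far higher in NOD, with 2135 CPM in NOD and 583 CPM in CD1. Past the limit, 14 of its 14 genes were higher in NOD, beside 23.2% of all tested genes. The list was chosen with earlier results of these data known, so this count is a description. *Cst3* had a ratio of -0.47 in barcodes below the median of that list (68 NOD and 1027 CD1) and -0.52 at or above it (258 and 838). Within these subsets the strains were not matched for interferon-response level. Over 5 bins of total UMIs the ratio of *Cst3* ran from -0.30 in the shallowest bin, where it was at 22369 and 27524 CPM, to -0.57 in the bin of rank 4. The level of *Cst3* fell with depth in both strains, to 10704 and 15354 CPM in the deepest bin.

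*Ctsb* was higher in NOD in all 13 subsets, from 0.16 in the deepest bin to 0.88 in the shallowest. *Ctss* was lower in 12 of them, from -0.36 in the barcodes low in C1q to -0.10 in those high in C1q, and stood at 3961 and 3952 CPM in the shallowest bin. *Ctsd* had no single direction. Its ratio was 1.53 in barcodes low in interferon-response genes, 68 of them in NOD, and 0.03 in the others. It was 0.83 at a mitochondrial share at or above the median of 5.08% and -0.02 below it, and -0.54 in the deepest bin. Counting intervals leave out the spread between barcodes, and few barcodes held much of *Ctsd*. The part of mitochondrial share and depth in the *Ctsd* ratio was not tested.

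**Figure D4:**
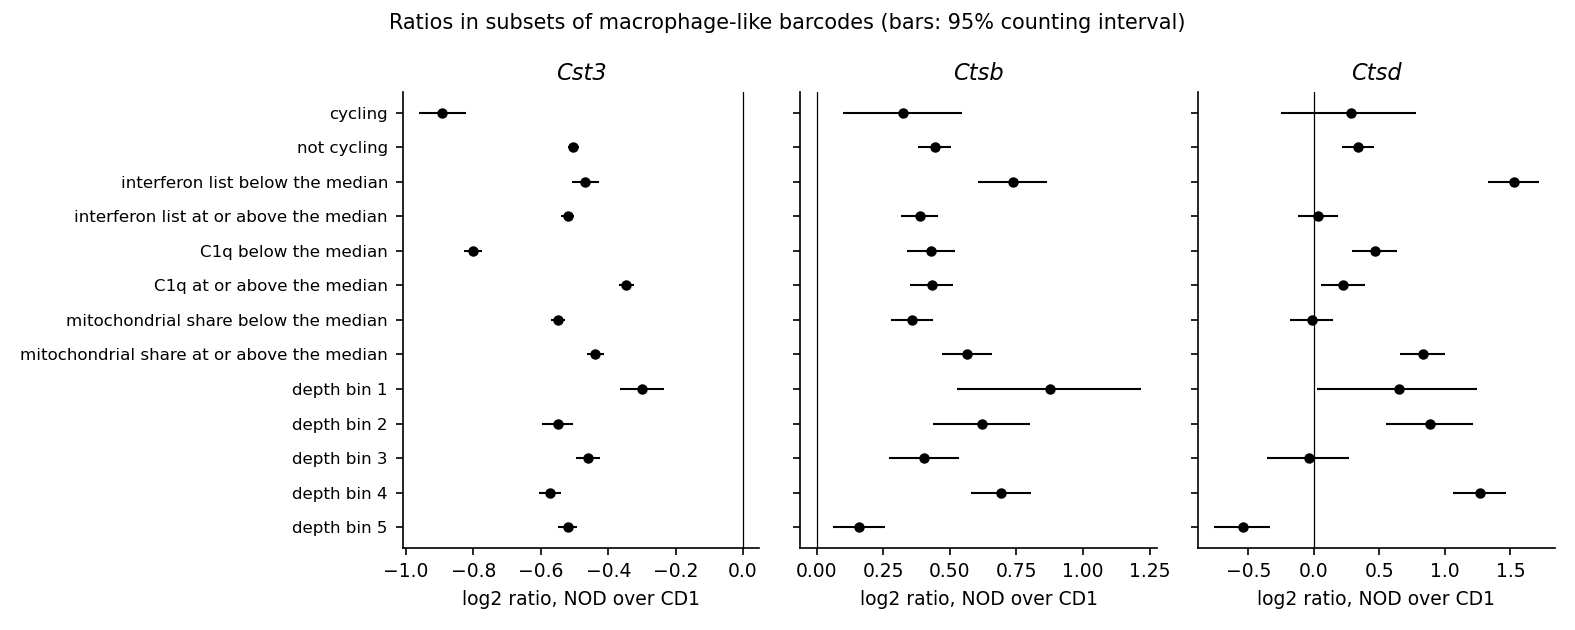
Log2 ratio (NOD over CD1) of *Cst3*, *Ctsb* and *Ctsd* in 13 overlapping subsets of the same macrophage-like barcodes, with 95% counting intervals. Depth bin 1 holds the shallowest barcodes. *Cst3* lies below 0 (-0.89 to -0.30) and *Ctsb* above 0 (0.16 to 0.88) in each subset, whereas *Ctsd* lies on both sides (-0.54 to 1.53).

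Endothelial-like barcodes did not share the lower *Cst3*. It was at 1429 CPM in NOD (7981 UMIs) and 1282 CPM in CD1 (24581 UMIs), a ratio of 0.16 (0.12 to 0.19), although the looser class rule gave -0.17. Free RNA alone, estimated from C1q in these barcodes, would have given 113 CPM in NOD and 212 CPM in CD1. *Ctsl* was the protease with the highest level, at 208 and 240 CPM (-0.21, -0.30 to -0.11). *Ctsz* was at 144 and 174 CPM (-0.27, -0.38 to -0.16), *Ctsb* at 130 and 147 CPM (-0.17, -0.29 to -0.06), and *Ctsd* at 129 and 125 CPM (0.05, -0.07 to 0.17). *Ctss*, at 30.8 and 32.0 CPM, was near its free RNA levels of 25.0 and 32.1 CPM, and so were *Ctsc* and *Ctsh*. None of the 10 genes was past the limit of 0.32 in either direction, beside 18.4% lower and 20.9% higher of all 10821 genes tested.

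**Figure D5:**
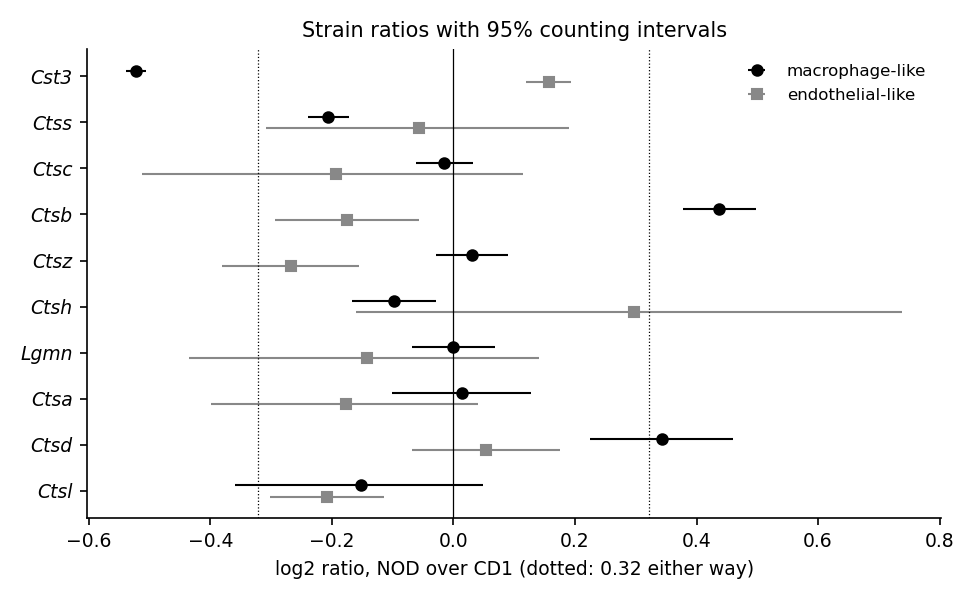
Log2 ratio (NOD over CD1) of each of the 10 genes in macrophage-like (black circles) and endothelial-like (grey squares) barcodes with 95% counting intervals; the dotted lines mark the limit of 0.32. *Cst3* lies at -0.52 in macrophage-like and 0.16 in endothelial-like barcodes, and *Ctsb* at 0.44 and -0.17.

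In NK-like barcodes *Ctsd*, not *Cst3*, was the most abundant of the 10 genes, at 433 CPM in NOD and 512 CPM in CD1 (-0.24, -0.36 to -0.12). *Cst3* was at 124 and 257 CPM (-1.05, -1.26 to -0.85). Free RNA would have given 19.3 CPM in NOD but 181 CPM in CD1, so most of the CD1 level of *Cst3* was of the size that free RNA gives, and subtracting it turned the ratio to 0.44. *Ctss* was at 38.0 and 73.8 CPM (-0.96), where free RNA would have given 4.26 and 27.4 CPM. *Ctsb* was at 54.6 and 72.7 CPM (-0.41, -0.75 to -0.08), a ratio that the stricter class rule turned to 0.12. *Ctsa* was at 51.1 and 33.6 CPM (0.60, 0.20 to 1.01). Of the 7 genes with at least 100 UMIs, 3 were lower (*Cst3*, *Ctss* and *Ctsb*) and 1 was higher (*Ctsa*), beside 15.3% and 19.3% of 6602 genes. *Ctsh*, *Ctsl* and *Lgmn* had fewer UMIs and lay at 5.12 CPM or less.

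T-like barcodes also held more *Ctsd* than *Cst3*, at 252 CPM in NOD and 212 CPM in CD1 (0.25, 0.03 to 0.49). *Cst3* was at 169 and 140 CPM (0.27, -0.01 to 0.56), where free RNA would have given 43.0 and 62.3 CPM. Under other settings its ratio ran from -0.62 (looser class rule) to 0.87 (thinned to 500 UMIs). *Ctss* was at 139 and 131 CPM and *Ctsb* at 108 and 103 CPM, and their intervals held 0. *Ctsa* was at 48.1 and 29.3 CPM (0.71, 0.12 to 1.38), but this rested on 23 CD1 UMIs and turned to -0.84 when barcodes were thinned to 500 UMIs. It was the only one of the 7 genes with at least 100 UMIs past the limit, and none was lower, beside 33.2% higher and 16.5% lower of 9203 genes. The 92 CD1 barcodes limit the precision here.

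Classes with fewer than 50 barcodes in either library are given as levels without ratios. B-like barcodes (572 in NOD) held *Ctss* at 404 CPM, *Cst3* at 326 CPM, *Ctsh* at 249 CPM and *Ctsc* at 247 CPM. The 14 NOD dendritic-like barcodes held *Cst3* at 8308 CPM (1453 UMIs), the highest level outside macrophage-like barcodes among the NOD classes, with *Ctss* at 452 CPM, *Ctsz* at 412 CPM and *Ctsh* at 406 CPM, and 1 UMI of *Ctsd*. Fibroblast-like barcodes held *Ctsl* at 505 CPM in NOD (55 barcodes) and 813 CPM in CD1 (16 barcodes). Their *Cst3* was at 1218 and 3090 CPM, where free RNA would have given 470 and 1292 CPM. The estimated free RNA share of fibroblast-like barcodes was 28.3% in NOD and 18.2% in CD1. Scrublet flagged 14.5% of them in NOD and 43.75% in CD1 as doublets, and these were kept.

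Among the relatives of the 10 genes, *Cstb* (165 and 111 CPM in macrophage-like barcodes, above) was at 49.4 and 40.8 CPM in T-like barcodes. *Ctsk* had no UMI in NOD macrophage-like barcodes, which allows up to 1.15 CPM (a floor of 3 counts), and 6 UMIs in CD1, and it was found in fibroblast-like barcodes at 106 and 197 CPM. *Ctsw*, the cathepsin of cytotoxic lymphocytes, was at 567 and 639 CPM in NK-like barcodes and 306 and 303 CPM in T-like barcodes. *Cst7*, the cystatin of lymphocyte and myeloid granules, was at 129 and 114 CPM in NK-like barcodes. *Ctse*, an aspartic protease, was at 21.8 and 62.0 CPM in macrophage-like barcodes (-1.51, -1.92 to -1.12), *Ctsf* at 37.8 and 47.5 CPM (-0.33), and *Ctso* at 35.9 and 33.4 CPM (0.11).

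For the other lysosomal genes in macrophage-like barcodes, the shares of all tested genes to set beside the counts are again 15.5% lower and 23.2% higher, with a median of 0.06. Of 39 tested hydrolases outside the 10 genes, 6 were lower and 5 higher past the limit, with a median of -0.0036, and the hydrolase list summed to 8647 CPM in NOD and 9755 CPM in CD1. The extreme members were *Arsb*, an arylsulfatase, at 65.0 CPM in NOD and 891 CPM in CD1 (-3.78), *Arsa* (-0.80), the galactosidase *Gla* (0.67) and the acid phosphatase *Acp5*, at 100 and 30.0 CPM (1.74). Of 21 lysosomal membrane genes 1 was lower and 5 were higher (median 0.05), with *Mfsd8* (-0.52) and *Cd68* (-0.28) lowest and *Mcoln1* (0.57) and *Laptm4b* (0.70) highest. Of 17 subunits of the proton pump (V-ATPase) none was lower and 1 was higher (median 0.11), ranging from *Atp6v0e* (-0.31) and *Atp6v0a1* (-0.18) to *Tcirg1* (0.28) and *Atp6v0a2* (0.93).

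Of 9 genes of sorting and of lysosomal transcription 6 had enough UMIs, and of these 2 were higher and none was lower, beside 23.2% and 15.5% of all tested genes. The 2 were *Mitf* at 259 and 190 CPM (0.45) and *Tfeb* at 80.7 and 63.1 CPM (0.35), and the lowest ratios were those of *Tfe3* (0.07, -0.19 to 0.33) and *Gnptab* (0.18, 0.01 to 0.35). In the list of class II antigen processing, which *Ctss* serves, 3 of 7 genes were lower and none was higher (median -0.12), beside 15.5% lower and 23.2% higher of all tested genes. *Cd74*, the invariant chain, was at 9558 and 15711 CPM (-0.72), *H2-Oa*, with 10 and 102 UMIs, had a ratio of -0.77 whose interval held 0 (-1.88 to 0.17), and *Ifi30* (-0.07) and *H2-Ob* (0.17) were the highest. The 14 interferon-response genes had a median of 1.68, from *Gbp3* (0.75) and *Irf1* (0.80) to *Cxcl9* (3.35) and *Iigp1* (5.96).

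For each of the 10 genes, the genes most like it over 8 profiles (4 classes in both strains) were found by Pearson's r of log2(CPM + 10) among 12301 genes. Different names do not show different patterns, since some of the 10 genes also went closely with one another. *Ctsh* and *Lgmn* had r = 0.989 and *Cst3* and *Ctsz* r = 0.988, whereas *Ctsd* and *Ctsl* had r = -0.764. These 8 points share libraries and classes, so r is a description. *Cst3* was most like *Ly96* (r = 0.997), *Cep170* and *Hexa*, and *Ctss* was most like *Abhd15* (r = 0.996), *Zfyve28* and *Ifi30*. *Ctsz* went with *Agmo* (r = 0.997), *Psap* and *Itgb5*, *Lgmn* with *Tmem86a* (r = 0.995), *Rap2a* and *H2-Aa*, and *Ctsc* with *Ncf1* (r = 0.994), *Irf5* and *Cpq*. *Ctsh* went with *Snx24* (r = 0.999), *Rtn1* and *Pdlim4*, *Ctsb* with *Grk3* (r = 0.994), *Heatr5a* and *Igsf8*, and *Ctsa* with *Ppt1* (r = 0.994), *Adam17* and *Chd9*. *Ctsl* differed from these in going with *Acvrl1* (r = 0.999), *Hsd3b7* and *Dlc1*, since its endothelial-like level was above its macrophage-like level. *Ctsd* went with *Gtf2ird2* (r = 0.987), *Zfp687* and *Gm49870*.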

How the data were processed

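Single-cell RNA sequencing of 1 NOD/ShiltJ and 1 CD1 salivary gland library was analysed from the UMI counts per gene and barcode that the authors deposited, with no cell filter or scaling applied after counting. The submitters' processing notes name Cell Ranger 8.0.0, Seurat 5.0.1, R 4.3.1 and GRCm39. Depth came to 52790319 UMIs (NOD, 1298073 barcodes) and 56483149 UMIs (CD1, 1331542 barcodes). The libraries are the groups that the labels give. The members and gene lists were chosen with earlier results of these data known.

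Barcodes with at least 500 UMIs and 300 genes were kept, without a mitochondrial limit or a doublet call. A barcode took the class (15 marker lists) whose markers gave at least 3 UMIs from at least 2 genes and at least 80% of all marker UMIs, and 40.0% of NOD and 27.7% of CD1 barcodes stayed unassigned. UMIs were summed per class and library and divided by the class total (CPM, exact Poisson intervals), and log2 ratios with conditional binomial (Clopper-Pearson) intervals, all at 95%, in classes with at least 50 barcodes in both libraries. These intervals cover counting error only. Genes with at least 100 UMIs in a class entered counts of genes past a log2 ratio of 0.32 in size. Empty droplets were those with 10 to 100 UMIs. Free RNA was estimated in macrophage-like barcodes from 5 endothelial genes and elsewhere from C1q genes. Cycling barcodes had at least 2 UMIs of a cycling list. Depth bins are the NOD quintiles of total UMIs.

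Named are the 10 genes, the 5 other regulators with the largest CPM differences, the 3 genes most alike in profile (at least 200 UMIs), and the 2 highest and 2 lowest of each list. *Apoe*, *Clec9a*, the relatives by class and genes at 0 were named after their values were seen. The alternatives changed the minimum of UMIs, the mitochondrial limit, doublets (Scrublet), the class rule, scaling, weight of barcodes, depth, free RNA and cycling barcodes. The ratios and intervals were tried on simulated class sums that held counting error only. Spread between barcodes or libraries was not simulated, so coverage of it was not tested. Python 3.11.15, numpy 2.4.6, scipy 1.17.1, pandas 2.3.3, scanpy 1.11.5 and matplotlib 3.10.9 were used.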

Additional observations from a re-analysis of the deposited data

Results flagged for a closer look

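*Ctsb* moved in opposite directions in 2 classes, with a log2 ratio (NOD over CD1) of -0.41 in NK-like barcodes and 0.44 in macrophage-like barcodes. The difference between the classes was not tested, and in NK-like barcodes the stricter class rule turned the ratio to 0.12.

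The 10 genes also gave signal outside the classes compared. Summed, they stood at 3229 CPM in the empty droplets of the NOD library and 10508 CPM in those of the CD1 library, where macrophage-like barcodes made up 5.02% and 26.6% of the kept barcodes. *Cst3* alone was at 1663 and 7096 CPM in these droplets. In unassigned barcodes the 10 genes summed to 3748 CPM in NOD and 14101 CPM in CD1.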

How the results depend on the processing

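No paired analysis was possible because each strain has 1 library, and for the same reason no replicate could be left out. A total of 625 values came from 13 other settings and 1 more chosen after seeing the data. Of these, 488 stayed within the counting interval of the reported value, 132 moved outside it and 5 reversed. The 5 called reversed changed sign from reported ratios past the limit used for counts of genes. Other changes of sign were counted within the 488 or the 132. In endothelial-like barcodes under the looser class rule, *Cst3* went from 0.16 to -0.17 and the 10 genes summed from 0.04 to -0.24. When endothelial-like barcodes were thinned to 500 UMIs, *Ctsb* went from -0.17 to 0.29 and *Ctsl* from -0.21 to 0.12. The cause of these changes was not tested. *Cst3* in macrophage-like barcodes stayed lower in NOD under 13 of 13, between -0.61 (stricter class rule, 33 NOD and 391 CD1 barcodes) and -0.39 (each barcode weighted equally), and *Ctsb* higher, between 0.35 and 0.54. The 10 genes summed moved from -0.34 to -0.36 with at most 10% mitochondrial UMIs, -0.42 under the stricter rule, -0.31 with a C1q UMI required, -0.40 with median-of-ratios scaling, -0.24 with equal weights, -0.25 when thinned to 500 UMIs and -0.31 with free RNA subtracted. In the same order the regulator list moved from -0.31 to -0.33, -0.38, -0.29, -0.37, -0.23, -0.23 and -0.29. Without the 10 genes it moved from -0.04 to 0.045 (stricter rule), -0.098 (median of ratios), -0.093 (equal weights) and -0.078 (thinned). Reversed were *Ctsd* in macrophage-like barcodes (-0.073 with at most 10% mitochondrial UMIs and -0.37 under the stricter rule), *Ctsa* in T-like barcodes (-0.84 when thinned), *Ctsb* in NK-like barcodes (0.12, stricter rule) and *Cst3* in NK-like barcodes (0.44, free RNA subtracted). The planned estimate of free RNA in macrophage-like barcodes, from secretory genes, came to 148% in NOD and 21.2% in CD1 and gave no ratio. Endothelial genes took its place and gave 2.91% and 1.22%, so the estimate in both libraries depends on the genes chosen as its source.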
